A study of Mus musculus with 36 samples.

Results

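The genes described are the chemokines and chemokine receptors, taken by gene symbol. They are the rows of the expression table whose symbol begins with Ccl, Cxcl, Xcl, Cx3cl, Ccr, Cxcr, Xcr or Ackr followed by a digit. Of 18760 genes with a unique symbol, 50 matched, and 5 of these (Cxcl9, Cxcl10, Cxcl11, Ccr2 and Cxcr2) were excluded by name, which left 45 members. They comprise 29 ligands, 12 signalling receptors and 4 atypical receptors. Bulk RNA sequencing had been done on 36 libraries from wild-type C57BL/6 mice that carried MC38 tumors, grown from a mouse colon carcinoma line. Treated mice had been given anti-PD1 and anti-CTLA4 antibodies at a high dose, which is immune checkpoint blockade (ICB), and the others IgG control. The 2 arms were matched for age and sex per the series' design text, and neither the age, the sex nor the time of collection is given in the sources used here. Heart, skeletal muscle, liver, lung, kidney and tumor contributed 3 ICB and 3 IgG libraries each. The questions were which tissue each gene's RNA came from and whether its level differed between ICB and IgG.

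Chemokines are small secreted proteins that direct the migration of white blood cells along a concentration gradient. They are named by the spacing of their first cysteines (CC, CXC, XC and CX3C), and they act through receptors that span the membrane several times and signal through Gi proteins. Atypical receptors bind chemokines without this signalling and take them up or transport them. Some ligands, such as Cxcl12, are made constantly in healthy tissue, while others are induced in inflammation and draw in monocytes, neutrophils or lymphocytes.

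The coding sequence around the first cysteines shows the naming pattern in the ligands on which the results turn. Each line gives 30 coding bases, 5′ to 3′, from the GENCODE M21 transcript (GRCm38), with the cysteine codons that define the class in capitals. The 2 codons are adjacent in CC ligands, with 1 codon between them in CXC ligands and 3 in the CX3C ligand, and the XC ligand has a single one.
Ccl2: ccactcaccTGCTGCtactcattcaccagc
Ccl8: ccagtcaccTGCTGCtttcatgtactaaag
Ccl6: tcttcagacTGCTGCttctcttatgccaca
Cxcl12: agctaccgaTGCcccTGCcggttcttcgag
Cxcl1: gagctgcgcTGTcagTGCctgcagaccatg
Cxcl15: gagctacgaTGTctgTGTattcaggaacac
Xcl1: gagagtagcTGTgtgaacttacaaacccag
Cx3cl1: atgacgaaaTGCgaaatcatgTGCgacaag

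Levels are in FPKM, the fragments of a gene relative to its length and to the library's scaled depth as deposited by the authors, so they can be compared between genes. The libraries held 18940068 to 25430950 reads on the genes used, and 1 FPKM of a 1 kb transcript stood for 10.5 to 38.6 reads. Differences and their standard errors (SE) are on the log2(FPKM + 1) scale, which understates the change of low genes. A gene was tested in a tissue when at least 3 of its 6 libraries reached 1 FPKM, and p-values were adjusted over all genes tested with a threshold of 0.05. The labels do not state that libraries of 1 group are different mice, so the p-values refer to the spread among these libraries, part of which may be technical. Tissue markers fitted the labels: summed alveolar markers were 19910 to 54690 FPKM in lung and at most 32.2 FPKM elsewhere, and hepatocyte markers 61010 to 80210 FPKM in liver. In the tumor the 4 epithelial markers summed to 0.523 to 2.21 FPKM, near absent for a carcinoma. Lung IgG replicate 3 had summed neutrophil markers of 154.5 FPKM against 2526 and 1748 FPKM in the other IgG lungs. Several further libraries stood apart from others of their group in markers of other cells. These were tumor IgG replicate 3 (macrophage markers 936 FPKM against 300 and 370), tumor ICB replicates 2 and 3 (adipocyte markers 50.1 and 47.6 against 0.206 to 1.35 in the other 4), liver ICB replicate 2 (macrophage markers 736 against 2163 and 2805), muscle ICB replicate 1 (macrophage markers 283 against 780 and 747) and lung IgG replicate 1 (B cell markers 83.5 FPKM against 32.5 and 30.1 in the other IgG lungs).

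The tumor had the highest levels of Ccl2, Ccl7, Ccl8 and Ccl12, lung of Cxcl15 and Cxcl17, liver of Cxcl1, kidney of Ccl28 and Cx3cl1, and muscle of Ccl11 and Cxcl14. Of the 45 members 36 passed the filter in at least 1 tissue and 9 in none. A member was assigned to a tissue when that tissue was above each of the other 5 in the 36-library fit by limma, with ICB and IgG averaged. This held for 27 of the 36 (75%), where 70.2% of all 16123 genes tested had such a tissue, so the share is near the background. The assignment went to the tumor for 9 members (18.7% of all genes tested), to lung for 9 (13%), to liver for 3 (13%), to muscle for 3 (9.18%), to kidney for 2 (9.59%) and to heart for 1 (6.82%). Of the 27, 10 passed the filter in that single tissue and therefore had to stand higher there. Bulk RNA cannot separate a smaller number of producing cells from less RNA in each of them.

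**Figure D1:**
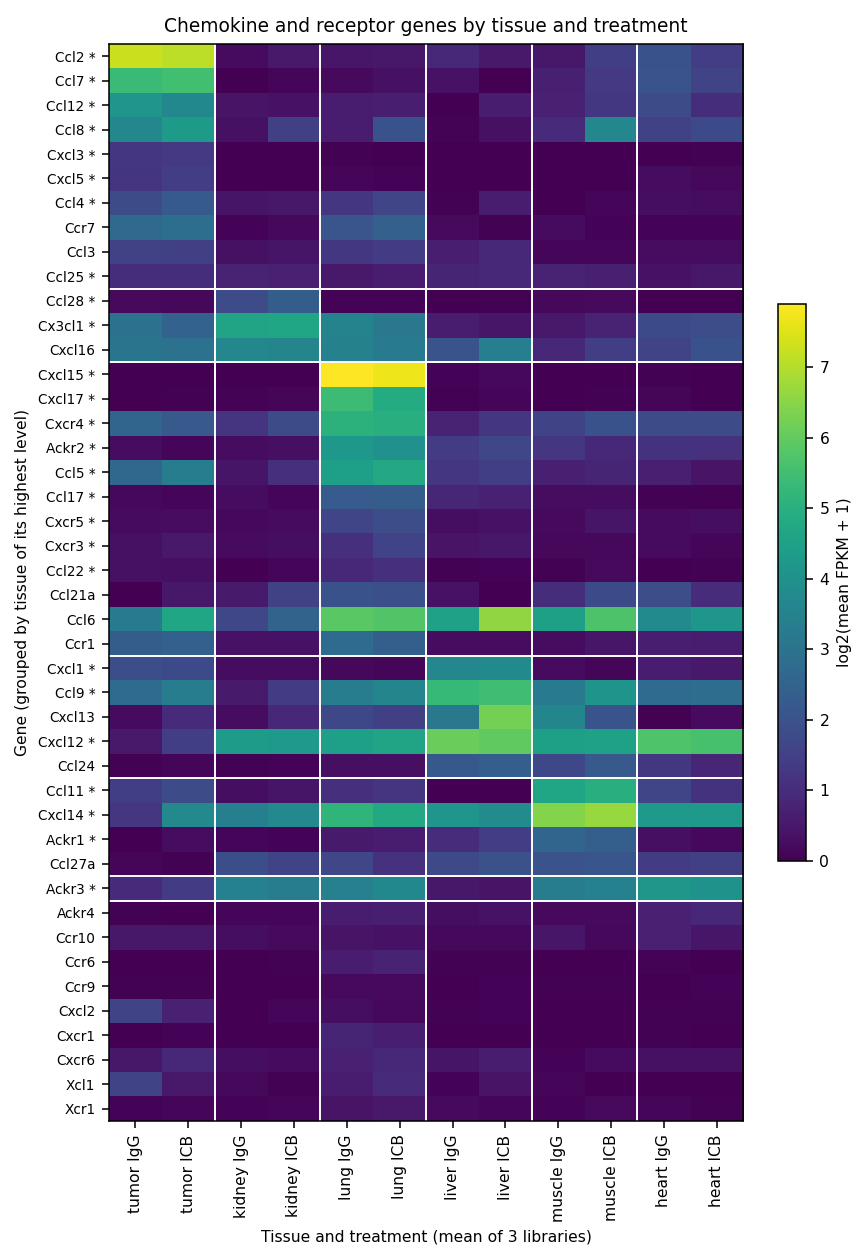
Mean level of 44 of the 45 members in each tissue and treatment, as log2(mean FPKM + 1) over 3 libraries, in rows grouped by the tissue of the highest level (the last 9 rows passed the filter in no tissue). An asterisk marks the 26 of these with 1 tissue above each of the others. Ccl2 and Ccl7 are bright in the tumor columns and Cxcl15 in the lung columns, while Cxcl12 is high in all 5 organs and low in the tumor.

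Among the ligands, Ccl2, the main attractant of monocytes, stood at 229, 175 and 54.8 FPKM in the IgG tumors and 121, 180 and 113 FPKM in the ICB tumors. No organ library exceeded 4.08 FPKM, so tumor and organs did not overlap, and the lowest tumor was IgG replicate 3. The tumor exceeded heart, the second tissue, by 5.44 ± 0.29 (log2, SE, limma adjusted p = 1.32e-16). Its close relative Ccl7 had 42.6 ± 10.5 FPKM in the tumor (SD, n = 6) against 2.56 ± 1.18 in heart (log2 margin 3.64 ± 0.22, limma adjusted p = 5.19e-15). Ccl12 (14.1 ± 9.41 FPKM) and Ccl8 (15.2 ± 5.78 FPKM), which also attract monocytes, were highest in the tumor too, with margins of 2.32 over heart and 1.99 over muscle. Ccl12 ranged from 4.6 to 32.1 FPKM among the IgG tumors alone, and the highest value belonged to IgG replicate 3. Ccl2 made up 31.5% to 66.2% of the summed FPKM of the 29 ligands in a tumor library.

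The neutrophil attractants Cxcl3 (1.43 ± 0.92 FPKM) and Cxcl5 (1.5 ± 1.45 FPKM) were also assigned to the tumor, at low levels. Cxcl2, of the same class, reached 3.1 and 2.65 FPKM in IgG replicates 1 and 2 and 0.414 to 0.685 FPKM in the other 4 tumors, so it did not pass the filter. Ccl4, which attracts macrophages and lymphocytes, had a margin of 0.67 ± 0.19 over lung, and its relative Ccl3 did not separate tumor from lung (0.24 ± 0.19, limma adjusted p = 0.259). Ccl25, a thymus and gut chemokine, was assigned to the tumor on 1.06 ± 0.10 FPKM against 0.795 ± 0.21 in liver. That margin, Ccl25, tumor minus liver, was lost with the IgG libraries alone (limma adjusted p = 0.0772), and an exon of Ccl25 overlaps Elavl1 on the opposite strand, so reads of the 2 genes may be mixed. Xcl1, made by T and NK cells, passed the filter in no tissue and was above 1 FPKM in tumor IgG replicate 3 (5.25 FPKM) and 2 lung libraries.

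Lung had the highest single level of any member. Cxcl15, also called lungkine, stood at 314, 132 and 265 FPKM with IgG and 145, 237 and 231 FPKM with ICB, and at most 0.155 FPKM in any other library. Its margin of 7.61 ± 0.13 over liver was the largest of the members. Cxcl17, a chemokine of mucosal surfaces, ranged from 20.4 to 65.3 FPKM in lung and stayed at or below 0.286 FPKM elsewhere (margin 4.94 ± 0.15 over kidney). Lung did not overlap with any other tissue in either gene. Ccl5, made by T and NK cells, was highest in lung (23.6 ± 13.1 FPKM, margin 1.53 ± 0.27 over tumor). With IgG it was 42.6 FPKM in replicate 1 against 11.9 and 8.47 in replicates 2 and 3, and with ICB 18, 32.2 and 28.3 FPKM. In the IgG lungs T cell markers (36.2, 13.4 and 19.9 FPKM) and NK cell markers (61.5, 14.4 and 22.9 FPKM) were likewise highest in replicate 1, and their part in the Ccl5 level was not tested. Ccl17 and Ccl22, the ligands of Ccr4 made mainly by dendritic cells, were assigned to lung at 3.9 ± 1.73 and 0.966 ± 0.53 FPKM.

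**Figure D2:**
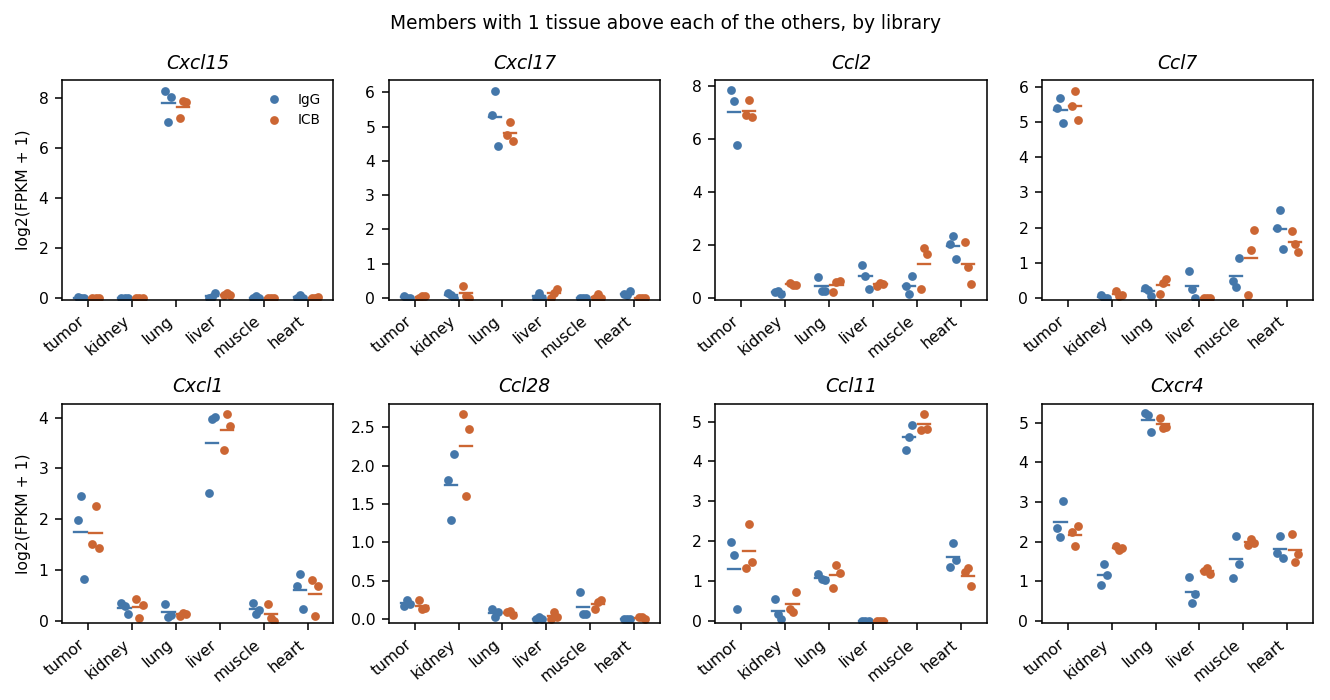
Log2(FPKM + 1) in each library for 8 members with 1 tissue above each of the others, by tissue, with IgG in blue, ICB in orange and a bar at each group mean. In each panel the assigned tissue lies above the others, and the 2 treatments overlap within it.

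In liver, Cxcl12, which keeps blood stem cells and lymphocytes in place through Cxcr4, had the highest mean of the ligands over the 6 libraries (64.2 ± 4.92 FPKM). With ICB alone the means of Ccl6 (94.03 FPKM) and Cxcl13 (74.5 FPKM) were above that of Cxcl12 (61.8 FPKM). Heart had 49.97 ± 5.05 FPKM, and the margin of 0.36 ± 0.16 (limma adjusted p = 0.0425) was lost in 9 of the fits that left out a single liver or heart library, with a pseudocount of 0.1, with median-of-ratios scaling and with the IgG libraries alone. The tumor was the low end for Cxcl12: its 6 libraries had 0.136 to 2.37 FPKM, below each organ library (lowest 14.6 FPKM), and kidney, the next tissue, exceeded it with limma adjusted p = 6.7e-18. Cxcl1, a neutrophil attractant, stood at 12.1 ± 4.32 FPKM in liver and had a margin of 1.88 ± 0.23 over tumor. Ccl9, a ligand of Ccr1, had 40.9 ± 11.4 FPKM in liver and exceeded muscle by 1.72 ± 0.30. Cxcl13, which attracts B cells through Cxcr5, had its highest mean in liver (41.3 ± 56.1 FPKM), but its libraries ranged from 1.2 to 133 FPKM and liver was not separated from muscle (limma adjusted p = 0.0504).

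Kidney led for the membrane-bound ligand Cx3cl1 (fractalkine), with 20.8 to 28.8 FPKM over its 6 libraries and a margin of 1.28 ± 0.14 over lung. Ccl28, an epithelial chemokine, had 1.44 to 5.37 FPKM in kidney and at most 0.279 FPKM in other tissues (margin 1.81 ± 0.12). Its receptor gene Ccr10 passed the filter in no tissue. In muscle Cxcl14, a chemokine of skin and other epithelia, reached 93.8 ± 24.4 FPKM, 1.63 ± 0.40 above lung. Ccl11 (eotaxin), an attractant of eosinophils, had 18.4 to 35.4 FPKM in muscle against at most 4.39 FPKM in any other library (margin 3.23 ± 0.20 over tumor). No read of Ccl11 was found in the 6 liver libraries, where a count of 0 allows up to 3 reads in each. The muscle libraries also held adipocyte markers at 437 to 1868 FPKM, and their part in the muscle levels was not tested.

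Another 5 ligands had 2 or 3 leading tissues that the test did not separate. Ccl6 was highest in lung (55.8 ± 9.31 FPKM), liver (58.1 ± 56.3 FPKM) and muscle (35.9 ± 24.9 FPKM). For Ccl6, lung was not separated from liver (limma adjusted p = 0.341) or muscle (limma adjusted p = 0.0675). Cxcl16 was highest in kidney (11.4 ± 1.21 FPKM) and lung (limma adjusted p = 0.288). Ccl24, an eosinophil attractant, was highest in liver and muscle (limma adjusted p = 0.0802), and Ccl27a, a ligand of Ccr10 known from skin, in muscle, liver (limma adjusted p = 0.255) and kidney (limma adjusted p = 0.0766). In muscle Ccl27a ranged from 1.18 to 4.5 FPKM. Ccl21a, which guides Ccr7-bearing cells, was highest in lung (0.827 to 4.25 FPKM), and neither muscle (limma adjusted p = 0.202) nor heart (limma adjusted p = 0.189) was separated from it. The Ccl21a value is uncertain, because 4 annotated copies, Ccl21b among them, are 99.5% identical to it over 402 coding bases.

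Among the signalling receptors, Cxcr4, the receptor of Cxcl12, took 59.2% to 74.8% of the summed FPKM of the 12 receptor genes in lung. It stood at 36.8, 35.7 and 26.2 FPKM in the IgG lungs and 33.7, 28 and 28.6 FPKM in the ICB lungs, and at most 7.2 FPKM in any other library (margin 2.67 ± 0.17 over tumor, limma adjusted p = 8.99e-15). Ligand and receptor thus had different orders: Cxcl12 was highest in liver, where Cxcr4 had its lowest levels (0.373 to 1.53 FPKM). Cxcr5 (2.37 ± 0.69 FPKM) and Cxcr3 (1.57 ± 0.66 FPKM), receptors of B cells and of activated T cells, were assigned to lung. Ccr7, the receptor that guides dendritic cells and lymphocytes to lymph nodes, did not separate tumor (5.88 ± 3.76 FPKM) from lung (3.81 ± 1.32 FPKM), and tumor IgG replicate 3 had 1.14 FPKM against 3.63 to 11.4 in the other tumors. Ccr1 likewise did not separate lung from tumor (limma adjusted p = 0.657). Both depended on a single library: Ccr7 was assigned to a tissue without tumor IgG replicate 3, and Ccr1 without lung IgG replicate 3. Ccr6, Ccr9, Ccr10, Cxcr1, Cxcr6 and Xcr1 passed the filter in no tissue.

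The 4 atypical receptors divided by tissue. Ackr2, which takes up inflammatory CC chemokines, was a lung gene (16.2 ± 2.06 FPKM, margin 2.59 ± 0.17 over liver). Ackr1, the Duffy antigen of venule endothelium, was highest in muscle (4.63 ± 0.52 FPKM, margin 1.30 ± 0.13 over liver); its exons overlap Cadm3 on the same strand. Ackr3, which removes Cxcl12, was highest in heart (16.4 ± 2.19 FPKM), 0.60 ± 0.21 above lung, and lowest in liver (0.255 to 0.517 FPKM). Ackr4 passed in no tissue.

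Neighbouring ligand genes did not always share a tissue. On chr5:90759360-90905938 (GRCm38, 146.6 kb) lie Cxcl5, Cxcl3, Cxcl15, Cxcl1 and Cxcl2, of which Cxcl5 and Cxcl3 were assigned to the tumor, Cxcl15 to lung and Cxcl1 to liver. On chr11:82035571-82116799 (81.2 kb) lie Ccl2, Ccl7, Ccl11, Ccl12 and Ccl8, and here all but Ccl11, a muscle gene, were assigned to the tumor. On chr11:83525778-83664683 (138.9 kb) Ccl5 was assigned to lung, Ccl9 to liver and Ccl4 to the tumor, while Ccl6 and Ccl3 were not resolved.

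**Figure D3:**
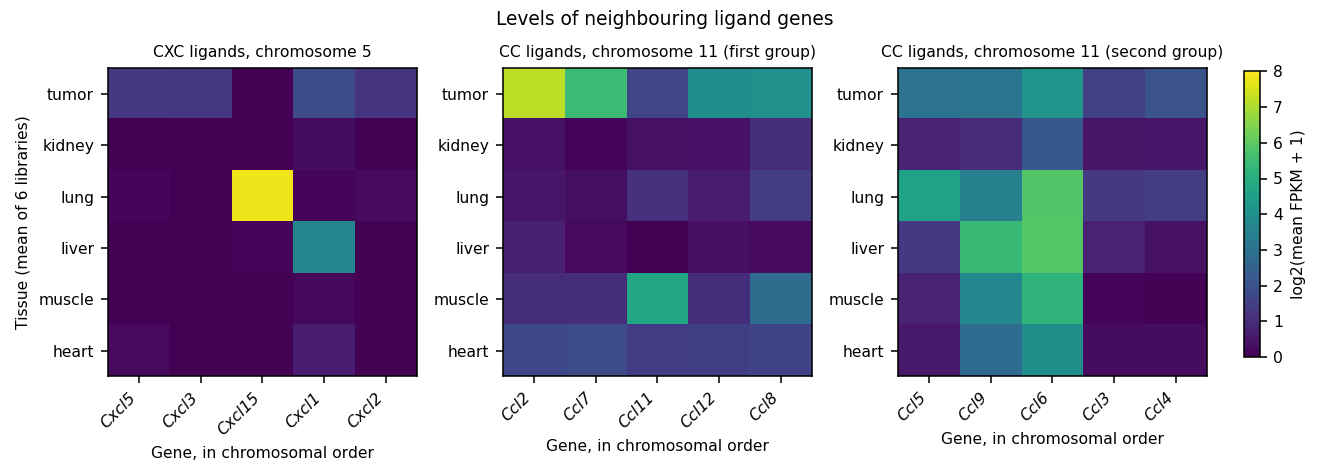
Log2(mean FPKM + 1) over the 6 libraries of each tissue for 3 groups of neighbouring ligand genes, in chromosomal order. Within the chromosome 5 group the brightest cell is Cxcl15 in lung, next to Cxcl1 in liver and the 3 genes whose means were highest in the tumor. In the first chromosome 11 group Ccl11 is brightest in muscle and its 4 neighbours in the tumor.

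For 4 of the 5 chromosome 5 genes (Cxcl5 is not shown) the 120 bases before the start are printed, because they lie side by side and differ in tissue. The sequences are from RefSeq (GRCm38.p6, plus strand). Capitals mark the NF-kB-like motif (GGGA, any base, TTTCC) and TATAAA, both searched on both strands.
Cxcl1 chr5:90891125-90891244: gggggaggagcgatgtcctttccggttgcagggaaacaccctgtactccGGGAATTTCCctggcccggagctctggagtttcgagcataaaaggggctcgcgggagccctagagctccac
Cxcl2 chr5:90903779-90903898: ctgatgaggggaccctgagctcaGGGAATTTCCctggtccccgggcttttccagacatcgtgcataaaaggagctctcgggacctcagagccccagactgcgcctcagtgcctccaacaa
Cxcl3 chr5:90785981-90786100: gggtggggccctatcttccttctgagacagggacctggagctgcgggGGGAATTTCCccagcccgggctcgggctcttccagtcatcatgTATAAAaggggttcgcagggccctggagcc
Cxcl15 chr5:90794414-90794533: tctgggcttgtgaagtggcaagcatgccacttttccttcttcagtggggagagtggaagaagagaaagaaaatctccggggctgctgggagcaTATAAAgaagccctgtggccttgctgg
The NF-kB-like motif begins at -71, -97 and -73 from the start in Cxcl1, Cxcl2 and Cxcl3 and was not found in the Cxcl15 window. TATAAA begins at -30 in Cxcl3 and -27 in Cxcl15. In windows of 300 bases (250 before and 50 after the start) the NF-kB-like motif occurred in 135 of 32851 RefSeq promoters (0.411%). Among the 32 members matched to RefSeq promoters it occurred in Cxcl1, Cxcl2 and Cxcl3. TATAAA occurred in 13.6% of all promoters and in 12 of the 32 members. A looser form (GGGA, any 4 bases, CC), which takes in the first, occurred in 20.7% of all promoters and in 11 of the 32.

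No member differed between ICB and IgG past the threshold in any of the 6 tissues by limma. A count model on recovered reads, limma-voom, also called 0. Of all genes tested by limma 0.0168% were called in kidney and 0% in each of the other 5 tissues. Without adjustment, p under 0.05 was reached by 4 of 14 members tested in liver (3.37% of all genes tested), 4 of 17 in heart (4.54%), 3 of 25 in lung (4.35%), 3 of 22 in tumor (6.87%), 2 of 9 in kidney (3.71%) and 1 of 15 in muscle (5.33%). The median difference of the members was 0.27 in liver (12 of 14 higher) and 0.44 in muscle (13 of 15 higher), against -0.02 and 0.00 for all genes tested there. It was 0.12 in tumor, 0.02 in kidney, 0.07 in lung and -0.03 in heart, where the median of all genes lay between -0.02 and 0.00. An exact permutation test of 3 libraries against 3 cannot give a two-sided p below 0.1, so for single genes the groups are described by whether they overlap.

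**Figure D4:**
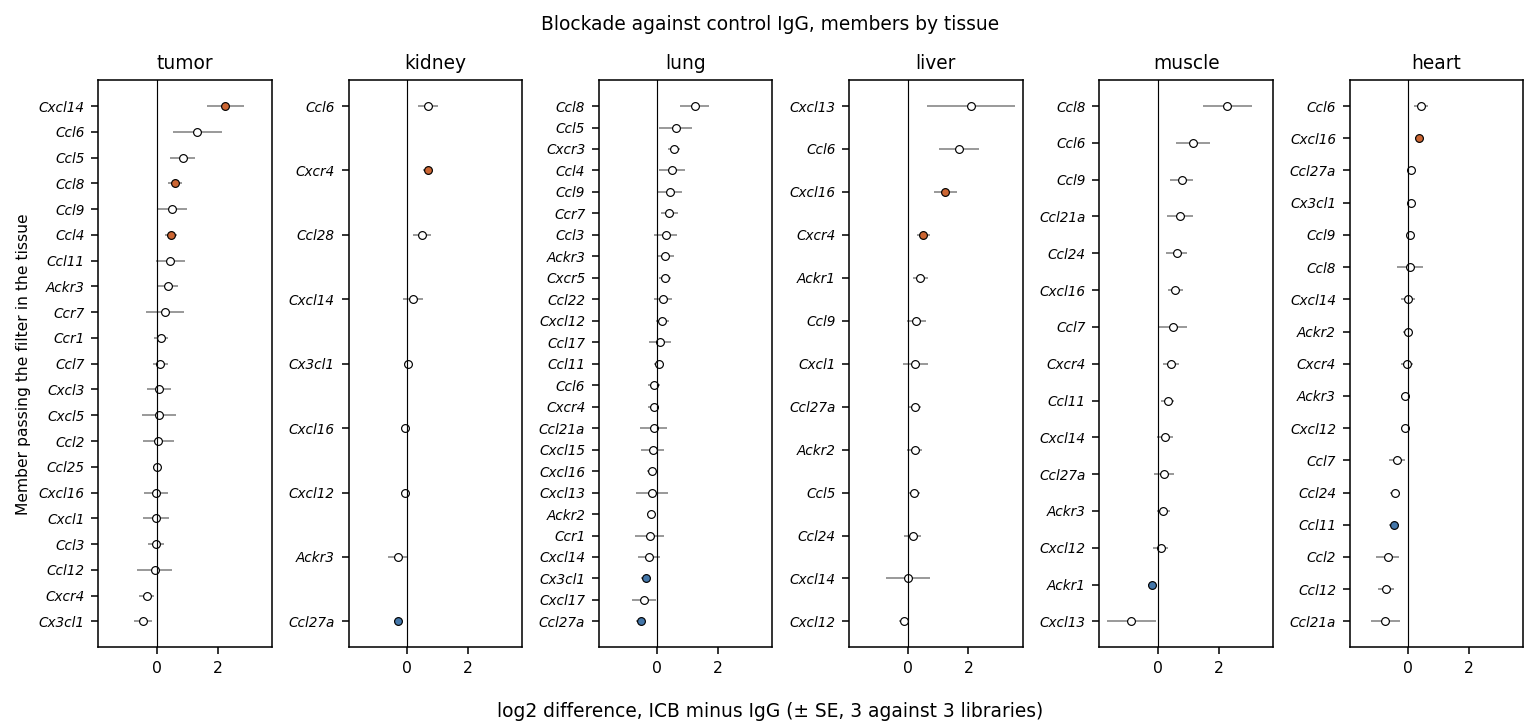
Log2 difference, ICB minus IgG, with its standard error for the members drawn that passed the filter, in 1 panel per tissue on a shared scale. Filled points are members whose 3 ICB libraries all lay above (orange) or below (blue) the 3 IgG libraries. In liver and muscle most points lie to the right of 0, and none in any panel passed the adjusted threshold.

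In the tumor, Cxcl14 had the largest difference. It stood at 2.38, 1.25 and 0.512 FPKM with IgG and 3.08, 19.4 and 13.9 FPKM with ICB, a difference of 2.25 ± 0.60 (limma adjusted p = 0.692). The groups did not overlap, and ICB replicates 2 and 3 were the high ones. These are the libraries with adipocyte markers (5 of 6 above 0), and replicate 2 also had skeletal muscle markers at 333 FPKM against 3.18 to 13.3 in the other 5 tumors. Adipocyte markers and Cxcl14 are both high in muscle, and the part of such tissue in the tumor value was not tested. Ccl8 had 12.1, 10.9 and 11.5 FPKM with IgG and 12.5, 25.5 and 18.6 with ICB (0.61 ± 0.23, limma adjusted p = 0.697), without overlap. Ccl4 had 1.55, 3.23 and 2.67 FPKM with IgG and 4.23, 3.6 and 3.34 with ICB (0.47 ± 0.20, limma adjusted p = 0.707). These were the 3 tested members with every ICB tumor above every IgG tumor, a pattern found in 5.65% of all genes tested, and no tested member lay wholly below (7.49%). The 5 monocyte markers summed to 13.7 to 42.1 FPKM with IgG and 35.2 to 91.2 FPKM with ICB (5 of 5 higher), and the 6 NK cell markers to 26.4 to 57.4 and 11.2 to 25.3 FPKM, none at 0 in any tumor. Their part in these differences was not tested. Ccl5 was at 3.17, 2.58 and 10.4 FPKM with IgG and 8.94, 8.86 and 9.25 FPKM with ICB. Its ICB values were close together and above IgG replicates 1 and 2, while IgG replicate 3 was the highest of all. Without that library the difference was 1.38 with limma adjusted p = 0.027, against 0.85 and 0.722 with it.

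In kidney the lymphocyte and progenitor receptor Cxcr4 had 0.89, 1.71 and 1.23 FPKM with IgG and 2.73, 2.48 and 2.56 FPKM with ICB. Every ICB library lay above every IgG library (3.45% of all genes tested did so), and the difference was 0.67 ± 0.14 (limma adjusted p = 0.992). The ordering was shared by T cell markers, of which 10 in the table summed to 1.7 to 2.54 FPKM with IgG and 3.01 to 4.09 FPKM with ICB. None was at 0 in any kidney library, but only 1 of the 10 passed the filter in kidney. Macrophage markers were 68.8 to 74.5 FPKM with IgG and 190.5, 81.8 and 157 FPKM with ICB, with 1 to 3 of the 13 at 0 in each library. In the same kidneys 3 of 3 skeletal muscle markers and 5 of 5 adipocyte markers tested were higher with ICB, and 5 of 5 erythroid markers were lower. The part of all these markers in the Cxcr4 difference was not tested. Ccl6, a macrophage and neutrophil chemokine, had 2.17, 2.18 and 2.26 FPKM with IgG and 8.32, 2.23 and 3.65 FPKM with ICB, and its ICB libraries had the same order as the macrophage markers. In the IgG kidneys, where Ccl6 was nearly level, these markers stood at 74.5, 72.7 and 68.8 FPKM and did not share its order. Their part in the Ccl6 values was not tested. Cx3cr1, the receptor of the kidney-enriched Cx3cl1, is no member; it had 1.15 ± 0.23 FPKM with IgG and 2.33 ± 0.75 with ICB (SD, n = 3), and its ligand differed by 0.02 ± 0.13. Ccl27a was lower in every ICB kidney (1.86 to 2.12 against 2.12 to 3.35 FPKM, -0.31 ± 0.13), where 5.22% of all genes tested lay wholly below.

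In lung, Ccl27a had 2.67, 1.66 and 2.27 FPKM with IgG and 1.14, 1.22 and 1.14 FPKM with ICB (-0.55 ± 0.14, limma adjusted p = 0.988). It and Cx3cl1 (9.96, 9.83 and 12 against 6.26, 8.63 and 9.08 FPKM) were the 2 tested members with every ICB lung below every IgG lung (4.14% of all genes tested), and none lay wholly above (4.5%). The 5 alveolar markers were lower too, at 33730 to 54690 FPKM with IgG and 19910 to 30930 FPKM with ICB, as were the 5 erythroid markers (1577 to 15640 against 346.3 to 2113 FPKM), none at 0. Their part in these differences was not tested. The Ccl27a value is uncertain, because Gm13306 is 99.3% identical to it over 447 coding bases and its exons overlap Il11ra1 on the opposite strand. Ccl8 had 1.12, 0.137 and 0.284 FPKM with IgG and 0.591, 5.29 and 2.98 FPKM with ICB, which overlapped (1.23 ± 0.48, limma adjusted p = 0.988). Cxcr3, the receptor of activated T cells, had 1.76, 0.706 and 0.889 FPKM with IgG and 1.61, 2.4 and 2.08 FPKM with ICB (0.54 ± 0.20). Within each arm the T cell markers had the same order: 36.2, 13.4 and 19.9 FPKM with IgG and 27, 42.5 and 33.0 FPKM with ICB. Their part in the Cxcr3 difference was not tested. The lung genes Cxcl15 and Cxcl17 overlapped between the groups.

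In liver, ICB replicates 1 and 3 stood apart from replicate 2 in Cxcl16, Ccl6 and Cxcl13. Cxcl16, a membrane-bound chemokine of macrophages and endothelium, had 2.23, 4.11 and 3.0 FPKM with IgG and 11.9, 4.15 and 12.1 FPKM with ICB (1.24 ± 0.38, limma adjusted p = 0.999). Its exons overlap Zmynd15 on the opposite strand, so reads of both genes may be mixed. Ccl6 had 25.7, 25.1 and 15.6 FPKM with IgG and 128, 21.0 and 133 FPKM with ICB (1.68 ± 0.65). Cxcl13 was more extreme, at 16.9, 4.1 and 2.94 FPKM with IgG and 89.7, 1.2 and 133 FPKM with ICB, so that replicate 2 was the lowest of the 6 livers (2.07 ± 1.45). The macrophage markers showed the same split of the ICB livers, with 521, 849 and 656 FPKM in the IgG livers and 2163, 736 and 2805 FPKM in the ICB livers, none of the 13 at 0. Among the IgG livers Cxcl16 had the order of these markers, while Ccl6 and Cxcl13 did not. The part of the markers in these differences was not tested. Without ICB replicate 2, 2 members passed, Ccl6 (2.54, limma adjusted p = 0.021) and Cxcl16 (1.69, limma adjusted p = 0.044), among 42 of 11257 genes. Cxcr4 did not show this split: it had 1.16, 0.373 and 0.592 FPKM with IgG and 1.4, 1.53 and 1.27 FPKM with ICB (0.52 ± 0.20). It and Cxcl16 were the tested members with every ICB liver above every IgG liver (3.26% of all genes tested), and none lay wholly below (3.58%). Cxcl12 and Cxcl1, the liver-enriched ligands, overlapped.

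In muscle Ccl8 had 0, 1.11 and 1.63 FPKM with IgG and 1.21, 11 and 23 FPKM with ICB. Replicates 2 and 3 of the ICB group stood above the rest, and replicate 1 lay within the IgG range (2.28 ± 0.81, limma adjusted p = 0.876). Ccl6 had the same pattern (11.3, 35.6 and 17 FPKM with IgG; 18.9, 67.9 and 64.5 FPKM with ICB). So did the macrophage markers, at 163, 369 and 312 FPKM with IgG and 283, 780 and 747 FPKM with ICB. In the same libraries 6 of 6 fibroblast markers were higher with ICB (summed 267 to 491 against 438 to 555 FPKM), while 5 of 5 erythroid markers (978 to 1517 against 284 to 877 FPKM) and 4 of 5 adipocyte markers tested were lower. The part of these markers in the muscle values was not tested. Ackr1, at 4.85, 5.18 and 4.99 FPKM with IgG and 3.99, 3.96 and 4.83 FPKM with ICB, was the tested member with every ICB muscle below every IgG muscle (5.62% of all genes tested), by 0.20 ± 0.14; none lay wholly above (6%). Ccl11 and Cxcl14, the muscle-enriched ligands, overlapped.

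In heart 11 members were lower with ICB and 6 higher, where 5586 of all 11476 genes tested were lower. Ccl2 had 3.18, 4.08 and 1.78 FPKM with IgG and 3.38, 1.26 and 0.473 FPKM with ICB, and Ccl12 had 3.37, 2.94 and 1.23 FPKM with IgG and 0.671, 1.39 and 1.1 FPKM with ICB (-0.73 ± 0.26, limma adjusted p = 0.997). Both overlapped, and Ccl8 differed by 0.06 ± 0.43. Ccl11, at 1.57, 2.87 and 1.88 FPKM with IgG and 1.33, 1.5 and 0.845 FPKM with ICB, was lower in every ICB heart (-0.47 ± 0.18; 4.97% of all genes tested lay wholly below). Cxcl16 was higher in every ICB heart, with 2.23, 2.14 and 1.85 against 3.76, 2.75 and 2.39 FPKM (0.35 ± 0.14; 4.79% lay wholly above). Erythroid markers were 749 to 3884 FPKM in the IgG hearts and 414 to 549 FPKM in the ICB hearts, and were not tested as a source of these values.

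For the average over the 5 organs, 6 members passed the filter in each organ and 0 were called (0.258% of the 8924 genes tested). The highest ranked were Cxcr4 (0.30 ± 0.10, limma adjusted p = 0.27), Cxcl16 (0.38 ± 0.14, limma adjusted p = 0.278) and Ccl6 (0.77 ± 0.28, limma adjusted p = 0.297). Cxcl12 (-0.01 ± 0.10), Cxcl14 (0.02 ± 0.25) and Ccl27a (-0.07 ± 0.09) lay near 0. With the filter met in at least 1 organ, 24 of 33 members were higher on average, where the median difference of all 15449 genes tested was -0.0071. Of these members 1 was called by limma, where 0.466% of all genes tested were called, 0.414% higher and 0.0518% lower. That call held in 9 of the 30 fits that left out 1 organ library and in 2 of the 5 that left out an organ, and it was lost with the title number as a replicate block. Ccl8 had a difference of 0.96 ± 0.27, with limma adjusted p = 0.102. Its ICB mean was higher in all 6 tissues, but it passed the filter only in tumor, lung, muscle and heart. Other members, Ccl9 and Cxcr5 among them, were also higher in all 6, and the share of all genes was not counted. Ccl8 passed in 1 of 30 fits that left out a library (without muscle ICB replicate 1, limma adjusted p = 0.0111) and in 1 of 5 that left out an organ (without heart, 0.0442). Without muscle its difference was 0.64 with limma adjusted p = 0.701, and without lung limma adjusted p was 0.284.

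**Figure D5:**
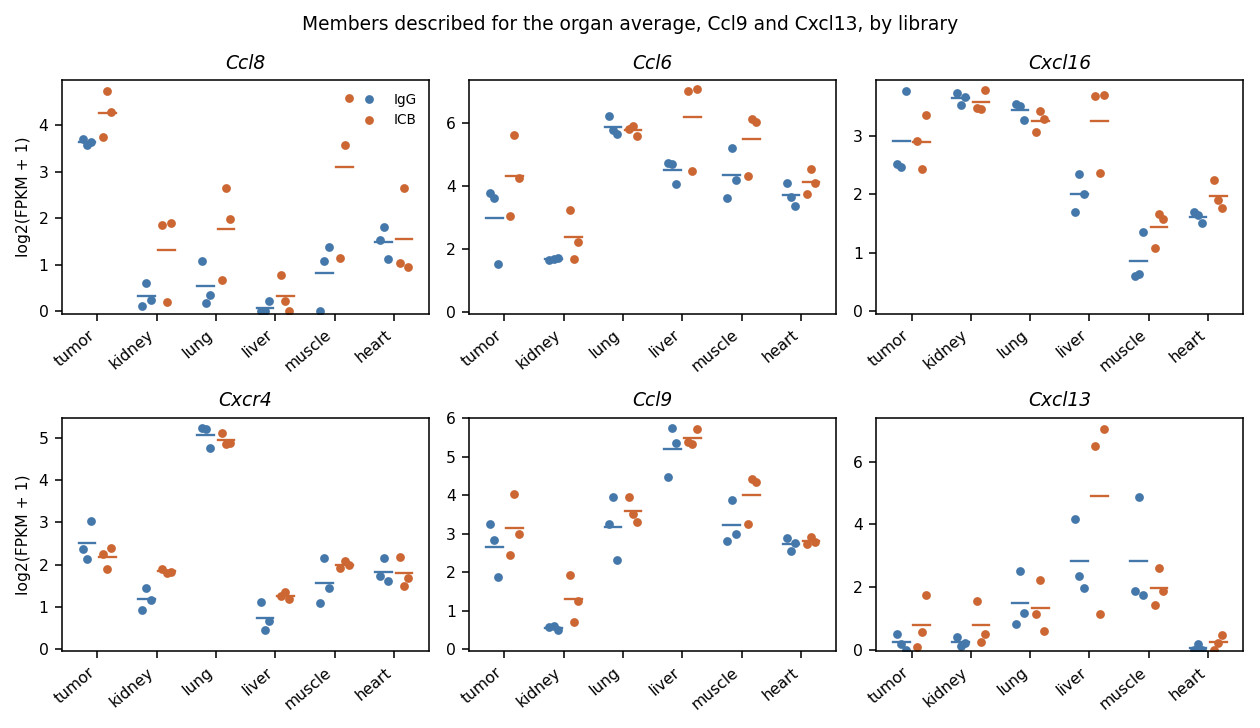
Log2(FPKM + 1) in each library, by tissue and treatment, for Ccl8, Ccl6, Cxcl16, Cxcr4, Ccl9 and Cxcl13, with bars at the group means. In Ccl6, Cxcl16 and Cxcl13 the same 2 liver ICB libraries lie above the third, and in Ccl8 and Ccl6 2 muscle ICB libraries lie above the third.

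The test of whether the ICB difference itself varied between the 6 tissues called 0 of 36 members (0.0868% of the 16123 genes tested). The smallest p-values were for Cxcl12 (limma F = 3.25, adjusted p = 0.654), Cxcl16 (limma adjusted p = 0.716) and Cxcr4 (limma adjusted p = 0.716). Without adjustment these and Cxcl14 had p under 0.05 in the limma F test. How many of all genes tested did so was not counted, so no background is given for it.

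Genes that carry the signal of chemokine receptors inside the cell, from G proteins and arrestins to Rac and its activators, were tested by the same fits. Of 56 in the table none passed in any tissue. In lung 45 of 53 tested were higher with ICB (median 0.15), and in kidney 29 of 39 (0.08). The counts were 29 of 43 in liver (0.10), 30 of 42 in muscle (0.09), 19 of 49 in tumor (-0.01) and 21 of 44 in heart (-0.01). Of all genes tested, 6069 of 12747 were higher in lung, 5342 of 11901 in kidney and 5134 of 11257 in liver. For muscle this was 5770 of 11410, for tumor 5494 of 11398 and for heart 5890 of 11476. Dock2, an activator of Rac in white blood cells, had 3.61 ± 1.33 FPKM in IgG lungs and 6.66 ± 1.33 in ICB lungs (0.76 ± 0.24, limma adjusted p = 0.988). B cell markers of lung were 83.5, 32.5 and 30.1 FPKM with IgG and 62.9, 84.5 and 56.5 FPKM with ICB. Higher with ICB were 10 of 11 macrophage, 10 of 10 T cell, 7 of 7 B cell and 4 of 4 NK cell markers tested in lung. Of the neutrophil markers 3 of 7 were higher. The part of these markers in the Dock2 difference was not tested. Rac2, the Rac protein of blood cells, had 0.775 ± 0.09 FPKM in IgG kidneys and 1.75 ± 0.49 in ICB kidneys (0.62 ± 0.15, limma adjusted p = 0.992). In the tumor Rac2 was lower (9.82 ± 2.13 against 7.12 ± 0.48 FPKM), as was Plcb3, a phospholipase downstream of Gi proteins (29.1 ± 1.25 against 21.6 ± 1.67 FPKM, -0.42 ± 0.10, limma adjusted p = 0.692). Of 13 related genes outside the naming rule, such as the platelet chemokine Pf4 and the atypical receptor Ccrl2, none passed either. The smallest p in kidney among them was that of Cmklr1, the chemerin receptor, with 1.99 ± 0.09 FPKM against 3.44 ± 0.55 FPKM (0.56 ± 0.11, limma adjusted p = 0.992).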

How the data were processed

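The authors deposited 1 table of FPKM values for all 36 libraries; the 2 arms, the tissues and the library kit (TruSeq) are as stated in the labels. The submitters' processing notes name HISAT2 2.1.0, edgeR and the mm10 build, with no role for each. The counter, the annotation and any strand setting were not given in the sources used here. Deposited FPKM values were whole multiples of the value of 1 read for 18781 of 18781 rows (tolerance 0.001 reads), which gave 19005189 to 25512980 reads per library, with implied normalization factors of 0.532 to 1.595. Of 36 replicate pairs none agreed within sampling noise (lowest chi-square per degree of freedom 10.9). Rows without a name or with a shared symbol were left out.

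ICB was compared with IgG by limma 3.58.1 (R 4.3.3, two-sided, mean-variance trend) on log2(FPKM + 1), for genes at 1 FPKM or more in at least 3 of a tissue's 6 libraries. Organ average, tissue-by-treatment F test and tissue levels came from 1 fit of the 36 libraries with 12 group means and Benjamini-Hochberg adjustment over all genes tested. The procedure was also run on simulated counts with the same spread for every gene and no outlying libraries. Groups with an outlying library, as seen here, were not simulated. Near copies were sought with BLAST 2.17.0 and positions taken from GENCODE M21. Exons of 8 members overlap another gene, so their values may mix reads. These are Ackr1, Ackr4, Ccl25, Ccl27a, Ccr9, Cxcl16, Cxcr5 and Xcl1. Of the 45 members 32 matched RefSeq promoters.

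Named with values were, per tissue, up to 5 members with the highest level, up to 5 with the largest margin, the 3 smallest p-values each way, and their receptor or ligand partners. Not every gene that meets this rule is printed, and 1 member is counted but not reported or drawn here. Xcl1, Ccl2 in heart, Ccl5 in the tumor, Cxcl13 in liver, the signalling genes and Cmklr1 were chosen after their values were seen. So was the title number followed for Ccl8. Members and lists were chosen with earlier results of these data known.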

Additional observations from a re-analysis of the deposited data

How the results depend on the processing

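Counts of members called between ICB and IgG within a tissue were 0 in the reported analysis and stayed 0 with limma-voom on recovered reads, median-of-ratios scaling, no filter, no trend or a pseudocount of 0.1. With 1 fit of all 36 libraries the count became 1 in liver and stayed 0 elsewhere, while calls over all genes went from 0 to 69 in tumor, 2 to 12 in kidney, 0 to 55 in lung, 0 to 74 in liver, 0 to 91 in muscle and 0 to 3 in heart. Leaving out single libraries gave 0 to 1 members in tumor (1 without IgG replicate 3, where 6 of 11398 genes were called), 0 to 2 in liver (2 without ICB replicate 2, where 42 of 11257 were called) and 0 to 0 in kidney, lung, muscle and heart. For the organ average the count was 0, and 1 with the filter in at least 1 organ; single libraries left out gave 0 to 1 (1 without liver ICB replicate 2: Cxcl16, 0.47, limma adjusted p = 0.038, where 119 of 8924 genes were called). The variation of the ICB difference between tissues kept a count of 0 in every setting run. The 27 members with 1 tissue above the others became 26 with a pseudocount of 0.1, 32 of 45 without a filter, 26 with median-of-ratios scaling, 26 with the IgG libraries alone (of all genes 56.6%, against 70.2%) and 26 to 28 with single libraries left out, and the highest tissue of the 27 was the same throughout. No refitted difference changed sign in 1524 refits, of which 1506 kept their side of the threshold. The refits covered the margins of the 27 members and a chosen part of the ICB differences. Those margins had already passed the threshold in the main fit, so the total says little about how stable the ICB differences are. Not every ICB difference given above was among them.

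No paired analysis was possible within a tissue because ICB and IgG libraries share no title number. Across tissues, the deviations of libraries with the same title number had a median correlation of 0.117 over 56 pairs (-0.128 to 0.437, 32 over 0.1) against -0.028 for 214 other pairs (32 over 0.1). Not every same-numbered pair was over 0.1 and the labels give the number no meaning, so it was not taken as pairing. With the title number as a replicate block (consensus correlation 0.106), 0 members were called in the organ average (2 genes in all against 23), 0 for variation between tissues (27 genes against 14) and 28 for a tissue (Cxcl13 gained).

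Of the 9 members under the filter, Cxcr1 had 212 reads and Xcl1 237 reads over all 36 libraries. Without a filter Cxcr1 had lung above each other tissue.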

Other observations

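Ccl8 was followed by title number, which the reported comparisons do not use. In 5 libraries whose titles carry 1 shared number it stood at 25.5 FPKM in tumor (ICB replicate 2), 5.29 in lung (ICB replicate 2), 11 in muscle (ICB replicate 2) and 5.25 in heart (ICB replicate 2), the highest ICB value of the tissue in tumor, lung and heart, and at 0 FPKM in liver (ICB replicate 3). Only this number is shown, and it was picked with its Ccl8 values known. Tumor ICB replicate 2 is also the library with the skeletal muscle markers described above. The labels do not say what the number stands for, and this was not tested.

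The class sums gave a further view. In kidney the 12 signalling receptor genes summed to 2.75 ± 0.32 FPKM with IgG and 4.41 ± 0.48 FPKM with ICB (SD, n = 3). In liver they summed to 4.14 ± 1.15 and 7.66 ± 2.18 FPKM, and in heart to 5.44 ± 1.10 and 5.52 ± 0.45 FPKM. In muscle they summed to 3.48 ± 0.82 and 5.08 ± 1.11 FPKM. Lung had 48.8 ± 12.6 and 47.4 ± 2.91 FPKM, and tumor 20.5 ± 3.02 and 22.0 ± 3.14 FPKM. Cxcr4, described above, made up 30.4% to 63.8% of the kidney sum. The 29 ligands of liver summed to 177 ± 16.9 FPKM with IgG and 323 ± 149 FPKM with ICB, with the lowest value in ICB replicate 2. Their sums were 463 ± 119 and 411 ± 70.6 FPKM in lung, and 113 ± 14.3 and 109 ± 12.5 FPKM in heart. Tumor had 275 ± 89.8 and 299 ± 88.9 FPKM. Kidney had 76.0 ± 2.44 and 87.1 ± 16.8 FPKM, and muscle 185 ± 43.2 and 254 ± 71.4 FPKM. These sums are given as values only.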
